A study of Mus musculus with 6 samples.

Results

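The genes described here are 5 ligands of the transforming growth factor beta (TGF-beta) and bone morphogenetic protein (BMP) pathways, the 4 Id genes that respond to them, and Ccn2. They were chosen by name as Tgfb1, Tgfb2, Tgfb3, Bmp4, Bmp7, Id1, Id2, Id3, Id4 and Ccn2, and every probe set annotated to only 1 of these symbols was used. All 10 genes were measured, by 18 probe sets, out of 12393 genes and 20380 probe sets with a single gene symbol. The lenses came from newborn (P0) mice, with 3 samples of Le-AP-2alpha conditional mutants, 3 samples of their wild-type littermates and 1 array per sample. In the mutants the targeted gene is Tfap2a (labelled Tcfap2a), which encodes the transcription factor AP-2alpha. The labels do not name the Cre line, the strain, the sex or the alleles of either group, nor whether a sample was 1 animal or a pool of lenses, so the spread behind each p-value is that between samples of unstated origin and may be technical. As background, the name Le is that of a Cre transgene under Pax6 control that is active in the lens placode and the surface ectoderm derived from it. The series asks, by its title, which roles AP-2alpha has inside the lens cells themselves.

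TGF-beta and BMP ligands are secreted dimers that bring together type I and type II receptor kinases, which phosphorylate Smad transcription factors. TGF-beta receptors act mainly through Smad2 and Smad3, BMP receptors through Smad1, Smad5 and Smad9, and both use Smad4. The Id genes are among the best known direct targets of BMP signalling: their proteins bind basic helix-loop-helix factors, chiefly the E proteins, and keep them from DNA. In the eye, Bmp4 and Bmp7 are needed for the formation of the lens, and TGF-beta can drive lens epithelial cells towards a mesenchymal, contractile state.

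The RefSeq promoter table of the GRCm38.p6 build held 6 of the 10 genes (Tgfb1, Tgfb2, Bmp4, Id2, Id3 and Id4). The 250 bases upstream of the annotated start are shown for its 3 Id genes, because the Id genes are the targets that are set against the ligands below. Capitals mark matches, on either strand, to GCCNNNGGC (the AP-2 motif with a 3-base spacer) or to GGCGCC (a GC-rich element of BMP-responsive promoters).

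Id2 (chr12:25096093-25096342, minus strand): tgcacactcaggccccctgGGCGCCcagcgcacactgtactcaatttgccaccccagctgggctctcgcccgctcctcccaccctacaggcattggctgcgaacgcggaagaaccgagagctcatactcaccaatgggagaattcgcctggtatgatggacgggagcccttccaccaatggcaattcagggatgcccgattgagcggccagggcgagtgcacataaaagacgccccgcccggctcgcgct
Id3 (chr4:136143572-136143821, plus strand): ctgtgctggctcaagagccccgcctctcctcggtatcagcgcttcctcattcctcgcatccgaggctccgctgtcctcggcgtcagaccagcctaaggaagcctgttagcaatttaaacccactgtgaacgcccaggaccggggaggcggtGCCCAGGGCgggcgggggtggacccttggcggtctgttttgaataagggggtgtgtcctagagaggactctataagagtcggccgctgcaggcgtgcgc
Id4 (chr13:48260866-48261115, plus strand): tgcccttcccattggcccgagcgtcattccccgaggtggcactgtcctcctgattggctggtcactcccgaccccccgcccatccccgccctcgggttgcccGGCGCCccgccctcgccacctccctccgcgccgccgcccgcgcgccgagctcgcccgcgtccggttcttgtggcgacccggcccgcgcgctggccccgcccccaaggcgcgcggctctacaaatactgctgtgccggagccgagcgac

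The AP-2 motif was found in 1 of the 6 promoters, that of Id3, and in 13.7% of the 32851 promoters of the table over the same length. GGCGCC was found in Id2 and Id4, and in 9.59% of all promoters. The palindromic Smad element GTCTAGAC was found in 0 of the 6 and in 0.167% of all, and the shorter Smad element GTCTG in Tgfb2 and Id3 and in 42.2% of all. No match overlapped another. The window of Tgfb2 in the table lies inside the span of the gene and not at its outer end. These matches describe letters in the window and not binding. The GC content of the window was 62.8% in Id2 and Id3 and 75.6% in Id4, against a median of 52.4% over all promoters.

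Levels are given as log2 of the deposited intensity, and differences are mutant minus wild type, each with its SE (standard error) from a limma fit. A probe set was called dim where its mean lay under the median of all probe set means, 5.26. All 7 measured fibre cell markers of 10 listed, among them Cryaa, were above that median on average. So were 4 of 5 lens epithelium markers, with Foxe3 dim. This does not tell lens from other eye tissue. The median was also exceeded by 8 of 8 neural retina, 10 of 15 stroma, 7 of 9 endothelium, 6 of 8 pigment cell and 1 of 8 surface epithelium markers. In mutants 6 of the 7 fibre and 3 of the 5 lens epithelium markers had a lower mean, against 6474 of all 12393 genes. Wild-type replicate 1 stood apart, its Pearson correlation across probe sets being 0.926 to 0.945 to any other array, while those 5 correlated at 0.974 to 0.985. Its 3' to 5' difference over the actin and Gapdh control probe sets, a measure of RNA integrity and amplification, was 1.30 log2 units and lay inside the range of the others, 0.98 to 1.77. In whole lenses, fewer cells of a type and less RNA per cell cannot be told apart.

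For none of the 10 genes was the difference between mutant and wild-type lenses large enough, against the spread between samples, to pass the test. The brightest probe set of 8 genes had a higher mean in mutants and that of Tgfb1 and Tgfb3 a lower one; over all genes 47.8% had a higher mutant mean. limma called 0 of the 10 genes at a Benjamini-Hochberg adjusted p under 0.05, and 0 at an unadjusted p under 0.05. It called 0 of 22626 probe sets in all, or 0%, and 3.85% of genes were under 0.05 before adjustment. The adjusted p was 0.999 for each of the 18 probe sets. The groups did not overlap for 2 of the 10 genes, Id4 and Ccn2, both higher in mutants, against 8.8% of all genes in either direction and 4.22% in that direction.

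**Figure D1:**
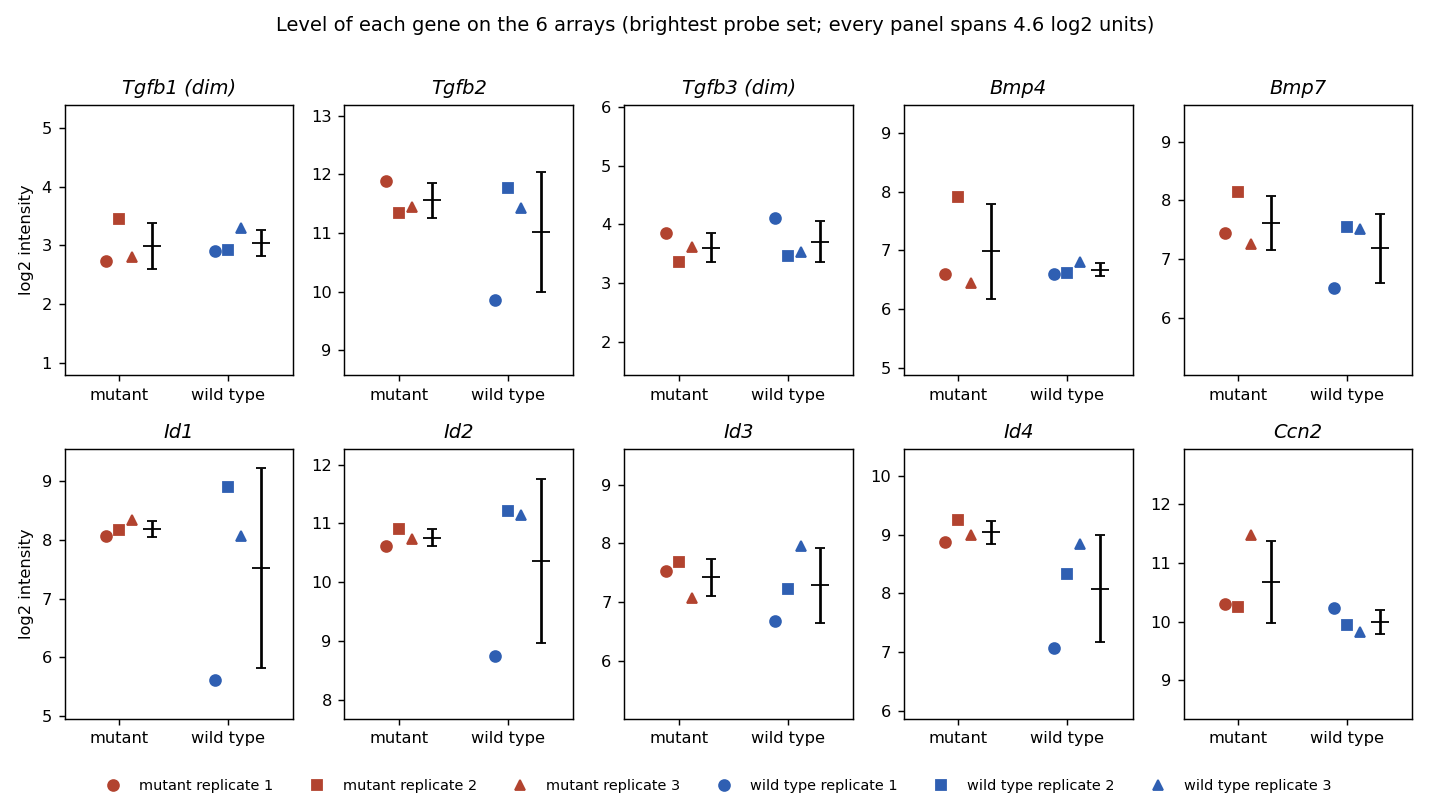
log2 intensity (y axis) of the brightest probe set of each gene on the 3 mutant arrays (left in each panel) and the 3 wild-type arrays (right); symbols mark the replicate, and bars show the mean and SD (n = 3). Every panel spans the same number of log2 units; the circle of wild-type replicate 1 lies below all other points for Tgfb2, Bmp7, Id1, Id2, Id3 and Id4.

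Of the TGF-beta ligands, Tgfb2, the isoform best known from the eye, was the bright one. Its brightest probe set (1450923_at) read 11.89, 11.34 and 11.43 in the mutants, against 9.86, 11.77 and 11.42 in the wild types. The 3 mutants and wild-type replicates 2 and 3 lay within 0.56 log2 units of each other, while wild-type replicate 1 was 1.47 log2 units below the lowest of them. The difference of 0.54 ± 0.50 (SE, n = 3 per group) became -0.04 ± 0.25 without wild-type replicate 1. The other probe sets, 1423250_a_at and 1450922_a_at, differed by 0.22 ± 0.43 and 0.29 ± 0.73. Wild-type replicate 1 was the lowest array on both, at 7.98 and 5.88, and without it their differences were -0.13 and -0.60.

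Tgfb1, the isoform widely made by immune and stromal cells, was dim in every sample. Its probe set (1420653_at) read 2.73, 3.45 and 2.80 in mutants and 2.91, 2.92 and 3.29 in wild types, a difference of -0.05 ± 0.26. Tgfb3 (1417455_at) was dim too, at 3.85, 3.36 and 3.61 in mutants and 4.10, 3.47 and 3.53 in wild types, a difference of -0.10 ± 0.25. The samples of both groups were interleaved for both genes, and differences can be compressed at such levels by the background correction of the array values.

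Bmp4, and Bmp7 on its brightest probe set, had their highest values in mutant replicate 2. Bmp4 (1422912_at) read 6.60, 7.91 and 6.44 in mutants and 6.59, 6.62 and 6.81 in wild types. Mutant replicate 2 was 1.10 log2 units above the highest other array, while the other mutants, at 6.60 and 6.44, lay near or below the lowest wild type. The difference of 0.31 ± 0.40 was -0.16 without that array. Bmp7, on its brightest probe set (1435479_at), read 7.44, 8.13 and 7.26 in mutants and 6.51, 7.54 and 7.51 in wild types. Here mutant replicate 2 was the highest by 0.59 and wild-type replicate 1 the lowest by 0.75, with the other arrays between. The difference was 0.43 ± 0.37, or 0.17 without mutant replicate 2 and 0.09 without wild-type replicate 1.

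The other Bmp7 probe sets did not show the same order of arrays. Probe set 1418910_at read 5.82, 6.41 and 5.41 in mutants and 6.34, 5.43 and 6.54 in wild types, a difference of -0.22 ± 0.39, and the dim 1432410_a_at differed by 0.05 ± 0.36. Wild-type replicate 1 was not the lowest array on either of them. The sign of the Bmp7 difference therefore depended on the probe set.

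The summed level of macrophage markers was also highest in mutant replicate 2. Their summed intensity over 15 measured markers was 1007, 4103 and 1285 in the mutants, against 976 to 1180 in the wild types. Of these 15 markers 13 had a higher mean in mutants and 8 were dim, among them Ptprc, which marks leukocytes, and Cd68, a lysosomal protein of macrophages. Their part in the Bmp4 and Bmp7 values was not tested.

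Id1 and Id2 showed the widest gap between wild-type replicate 1 and all other arrays. Id1 (1425895_a_at), an early target of BMP receptors in many cell types, read 8.07, 8.17 and 8.34 in mutants and 5.61, 8.90 and 8.07 in wild types. Wild-type replicate 1 was 2.45 log2 units, or 5.48-fold, below the lowest other array. The mean difference was 0.66 ± 0.79 with all arrays and -0.29 ± 0.28 without that array. The mutants were tight, with an SD of 0.14, against 1.71 in wild types.

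Id2, which also takes part in lymphoid and neural differentiation, was measured by 3 probe sets. Its brightest probe set (1435176_a_at) read 10.62, 10.91 and 10.74 in mutants and 8.74, 11.21 and 11.14 in wild types. Each mutant was thus below wild-type replicates 2 and 3 and above wild-type replicate 1, which was 1.87 log2 units under the lowest other array. The difference was 0.39 ± 0.66 with all arrays and -0.42 ± 0.19 without wild-type replicate 1 (limma adjusted p = 0.932). A second probe set (1422537_a_at) read 9.92, 9.41 and 10.19 in mutants and 6.71, 11.21 and 9.91 in wild types, so wild-type replicate 1 was again far below the rest. The third (1453596_at) was dim and did not follow them: it read 4.77, 3.43 and 4.52 in mutants and 4.34, 3.15 and 3.05 in wild types. Its difference was 0.73 ± 0.48, and 1.14 without wild-type replicate 1, where the second probe set had -0.72. Without that array the sign of the Id2 difference thus depended on the probe set.

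Id3, which is often induced together with Id1, varied less. It read 7.52, 7.67 and 7.06 in mutants and 6.67, 7.22 and 7.95 in wild types on its only probe set (1416630_at). Wild-type replicate 1 was the lowest array, by 0.39, and wild-type replicate 3 the highest, so the wild types bracketed the mutants. The difference was 0.14 ± 0.36, and -0.17 ± 0.30 without wild-type replicate 1.

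Id4, the member of the family best known from neural and glial precursors, was the only Id gene whose groups did not overlap. Its brightest probe set (1450928_at) read 8.87, 9.26 and 9.0 in mutants and 7.07, 8.32 and 8.85 in wild types. The lowest mutant exceeded the highest wild type by 0.02 log2 units, and wild-type replicate 1 was 1.25 below all others. The difference of 0.96 ± 0.45, the largest among the 10 genes, had an unadjusted p of 0.0729 and an adjusted p of 0.999 in limma, and without wild-type replicate 1 it was 0.46 ± 0.24 (adjusted p = 0.941). The probe set 1423259_at was also apart, at 6.58, 6.87 and 6.80 in mutants and 3.87, 6.48 and 6.29 in wild types, a difference of 1.20 ± 0.68 or 0.36 without wild-type replicate 1. The dim 1423260_at overlapped between groups and differed by 0.47 ± 0.38. All 3 probe sets of Id4 had a higher mean in mutants with and without wild-type replicate 1, whereas Id1, Id3 and the 2 brighter Id2 probe sets had a lower mean in mutants without it; the difference between Id4 and the other Id genes was not tested. Neural retina markers were also higher in mutants, for 7 of 8 measured markers, with summed intensities of 1928 to 3581 in mutants and 1329 to 1520 in wild types. The differences were uneven within that list, at 1.89 ± 0.71 for Isl1 and 1.36 ± 0.24 for Elavl3. They were 0.35 ± 0.96 for Atoh7 and 0.18 ± 0.45 for Rax, and Sox2 had a lower mean, at -0.46 ± 0.28. These marker genes were named after their values were seen. The part of the neural retina markers in the Id4 values was not tested.

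Ccn2 (older name connective tissue growth factor), a matricellular protein induced by TGF-beta and by mechanical cues through YAP, read 10.29, 10.25 and 11.47 in mutants and 10.22, 9.94 and 9.82 in wild types (1416953_at). The groups were apart by 0.03 log2 units, and mutant replicate 3 alone was 1.18 above the highest other array. The difference was 0.68 ± 0.36 (limma unadjusted p = 0.108) and 0.28 without mutant replicate 3. Unlike the Id genes, Ccn2 was not low in wild-type replicate 1, and its difference without that array was 0.79 ± 0.40. With arrays weighted by limma, it was 0.82 ± 0.29 with an unadjusted p of 0.0263 and an adjusted p of 0.288. In that run 3397 of 22626 probe sets had an unadjusted p under 0.05, against 742 in the main fit. The largest weight, 5.65, was that of wild-type replicate 3, the lowest array for Ccn2.

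**Figure D2:**
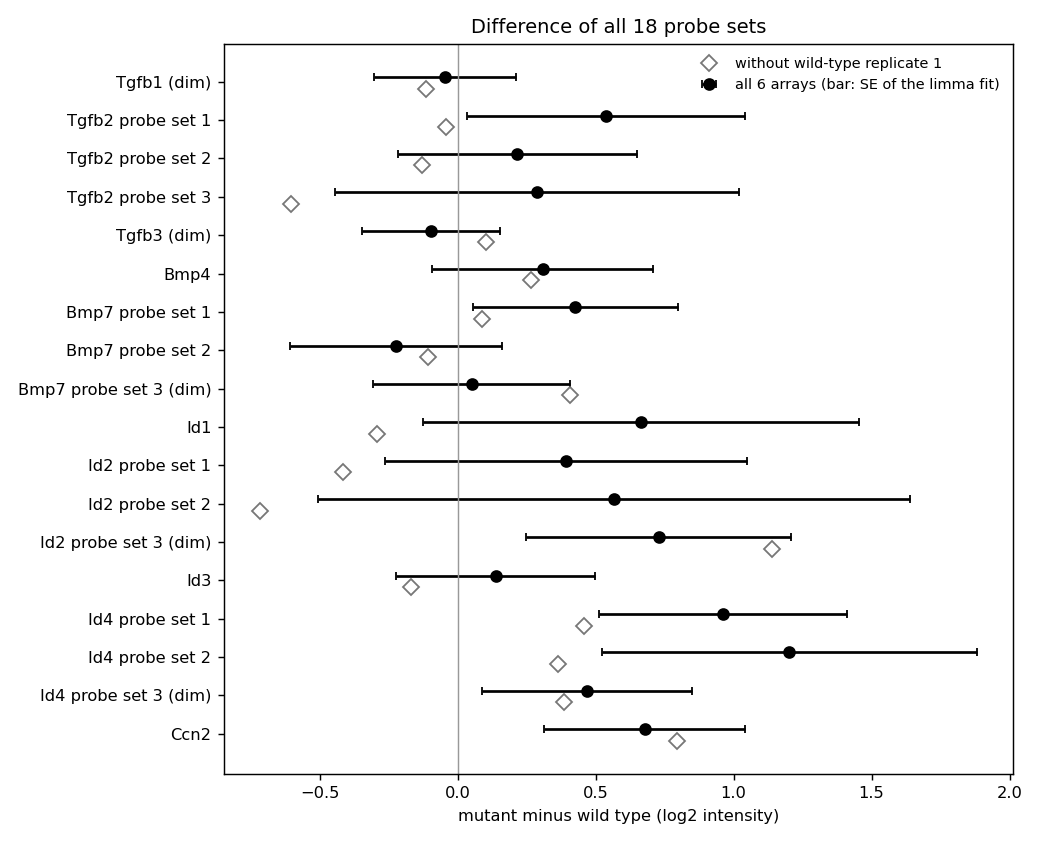
Mutant minus wild-type difference in log2 intensity (x axis) for each of the 18 probe sets, ordered by gene and, within a gene, from bright to dim. Filled circles use all 6 arrays, with bars for the SE of the limma fit, and open diamonds leave out wild-type replicate 1; the diamonds of Id1, Id3 and the 2 brighter Id2 probe sets lie left of 0, those of Id4 and Ccn2 right of 0.

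Set against each other, the Id genes had a larger mean difference than the ligands with all arrays and a smaller one without wild-type replicate 1. The mean difference was 0.54 over the 4 Id genes and 0.23 over the 5 ligands, against a median of -0.01 over all genes. The per-array mean of the Id genes, relative to its mean over the 6 arrays, was 0.19, 0.42 and 0.20 in mutants and -1.56, 0.33 and 0.42 in wild types. That of the ligands was 0.07, 0.40 and -0.13 in mutants and -0.44, 0.03 and 0.08 in wild types. Both were lowest in wild-type replicate 1 and the Id genes fell furthest there, while mutants and the other wild types overlapped for both. Without wild-type replicate 1 the mean difference was -0.11 for the Id genes and 0.06 for the ligands. The ligand difference minus the Id difference was -0.31 with all arrays and 0.17 without that array, so its sign rested on that array. Among the ligands, the 2 BMP genes averaged 0.37 and the 3 TGF-beta genes 0.13. No p is given for these means, since the members were chosen with earlier results of these arrays known.

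**Figure D3:**
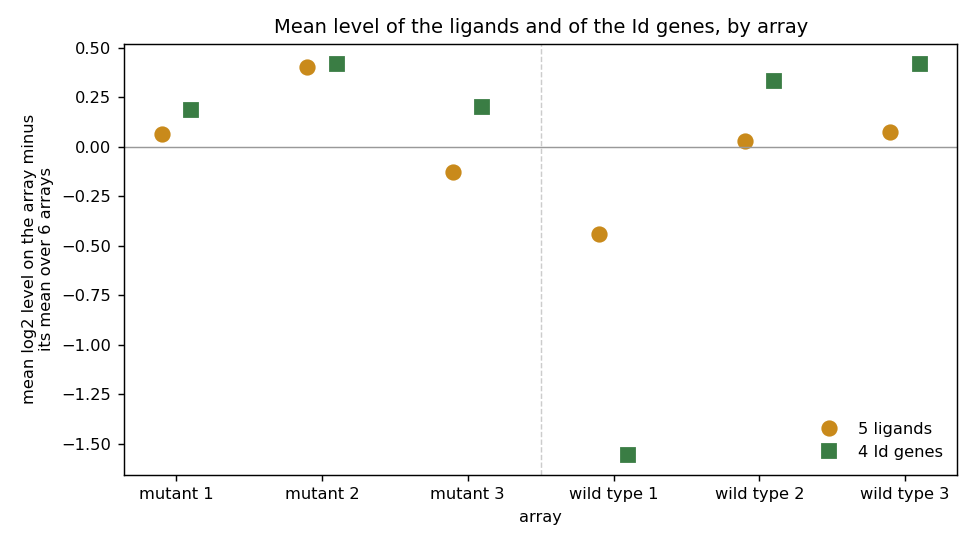
Mean log2 level of the 5 ligands (circles) and of the 4 Id genes (squares) on each array, minus the mean of the same genes over the 6 arrays (y axis); mutants stand left of the dashed line and wild types right of it. The Id genes lie between 0.19 and 0.42 on 5 arrays and at -1.56 on wild-type replicate 1, where the ligands are at -0.44.

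Many genes on the array had low values in wild-type replicate 1, and some had high ones. That array was the lowest of the 6 for 6 of the 10 genes (Tgfb2, Bmp7, Id1, Id2, Id3 and Id4) and for 25.8% of all genes. It was the highest of the 6 for 1 of the 10 genes, Tgfb3, with the share over all genes not given here. It was also the highest for Fstl3, at 7.40 against 5.35 to 6.18 on the other arrays. It was more than 1 log2 unit below every other array for 4 of the 8 genes that were not dim (Tgfb2, Id1, Id2 and Id4), against 13.5% of all 6867 genes at that brightness; this cut was chosen after the values were seen. The same held for 9 of 47 other pathway genes of that brightness. The genes nearest to the mean Id profile over the 6 arrays, by the root mean square deviation of centred log2 levels, were Lsm3 (0.09), Ndfip2 (0.09) and Dcp1a (0.10), out of 6859 candidates. The Id profile was itself low in wild-type replicate 1, so low values of these 3 genes there follow from how they were picked. Lsm3 read 6.57 there, against 8.34 to 8.50 on the other arrays. Nearest to the mean ligand profile were Cdk2ap2 (0.06), Rell1 (0.06) and Tra2b (0.07).

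The rest of the pathway was followed in 10 lists by role, with 88 of 101 listed genes measured. Of these 51 had a higher and 37 a lower mean in mutants, with a median difference of 0.06, or -0.04 without wild-type replicate 1. limma called 0 of them at an adjusted p under 0.05. At an unadjusted p under 0.05 there were 2, the activin subunit gene Inhba and the homeobox gene Msx2, both lower in mutants and both dim, a share of 2.27% against 3.85% of all genes. The groups did not overlap for 8 of the 88, or 9.09%, against 8.8% of all genes.

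Among 11 other ligands measured, 6 were higher and 5 lower, with a median of 0.01, and 10 were dim. Inhba read 3.25, 3.59 and 3.35 in mutants and 4.76, 3.71 and 5.52 in wild types, a difference of -1.27 ± 0.45 (limma adjusted p = 0.999). Each mutant was below each wild type. Nodal, dim as well, differed by -0.31 ± 0.19. The only other ligand that was not dim, Bmp2, named after its values were seen, read 6.70, 7.97 and 5.60 in mutants and 7.14, 6.11 and 6.09 in wild types; its highest value was in mutant replicate 2, as for Bmp4 and the brightest Bmp7 probe set.

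The 13 receptors had a median difference of 0.07, with 8 higher and 5 lower, and -0.02 without wild-type replicate 1. Tgfbr2, the type II receptor of TGF-beta, averaged 6.55 ± 0.56 in mutant lenses and 5.87 ± 0.72 in wild-type lenses (SD, n = 3 each). Its difference of 0.68 ± 0.44 (SE) was 0.28 without wild-type replicate 1. The dim Acvrl1, an endothelial type I receptor, differed by -0.63 ± 0.38. Bmpr1a, a type I BMP receptor named after its values were seen, was likewise lowest in wild-type replicate 1: it read 10.29, 10.25 and 10.26 in mutants and 8.12, 10.42 and 10.34 in wild types. Eng and Acvr2b, also named after their values were seen, were instead highest on that array, at 8.32 and 6.08. Eng read 5.80 to 6.59 on the other arrays. The receptors thus did not all move in the same direction there.

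Of the 6 receptor-regulated and common Smads, 4 were higher and 2 lower, with a median of 0.04. Smad1, which carries BMP signals, read 9.62, 9.31 and 9.46 in mutants and 9.25, 10.45 and 10.28 in wild types, a difference of -0.53 ± 0.34, or -0.90 without wild-type replicate 1. Its mutants were below wild-type replicates 2 and 3. The dim Smad9 differed by -0.19 ± 0.16.

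All 6 measured intracellular inhibitors had a higher mutant mean, with a median of 0.27 that became -0.05 without wild-type replicate 1. Bambi, a decoy receptor, differed by 0.50 ± 0.34 and Skil, a corepressor of Smads, by 0.25 ± 0.24. Without wild-type replicate 1 these were 0.17 and 0.10. Smad7, an inhibitor induced by TGF-beta and named after its values were seen, read 7.96, 6.89 and 7.28 in mutants and 5.53, 8.05 and 7.69 in wild types, again with wild-type replicate 1 lowest.

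Outside the cell, 9 of 12 BMP antagonists were lower, with a median of -0.22, or -0.17 without wild-type replicate 1. Fstl3, a follistatin-like inhibitor of activins, read 5.38, 5.35 and 6.18 in mutants and 7.40, 5.87 and 6.16 in wild types, a difference of -0.83 ± 0.45, and -0.37 without wild-type replicate 1. The dim Sost, a secreted antagonist, differed by -0.38 ± 0.19. Of 13 genes of TGF-beta latency and activation, 4 were higher and 9 lower, with a median of -0.07. Bmp1, a protease that despite its name is no BMP ligand and frees ligands from their antagonists, read 5.44, 5.36 and 5.21 in mutants and 5.76, 5.63 and 5.82 in wild types. Each mutant was below each wild type on this brightest probe set, a difference of -0.40 ± 0.17 (limma unadjusted p = 0.0549). The groups overlapped on the other Bmp1 probe sets, both dim, which differed by -0.49 ± 0.54 and -0.33 ± 0.20. The dim latency protein gene Ltbp4 differed by -0.43 ± 0.25.

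Other TGF-beta targets were higher in mutants for 10 of 12 genes, with a median difference of 0.33, and 0.31 without wild-type replicate 1. Col1a1, a fibrillar collagen chain, read 8.10, 6.86 and 6.40 in mutants and 4.84, 5.90 and 6.67 in wild types. Its difference was 1.32 ± 0.60, and fibronectin (Fn1) differed by 0.77 ± 0.38. The groups overlapped for both genes, and both differences were smaller without wild-type replicate 1, at 0.83 and 0.56. The list shares 3 collagen genes with the stroma markers, of which 12 of 15 were higher, with 5 dim, and the summed intensity of those markers was 1416 to 1979 in mutants and 1084 to 2454 in wild types; their part in the values was not tested.

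Other BMP targets were higher for 5 of 8 genes, with a median of 0.16, and -0.04 without wild-type replicate 1. Msx2 read 3.46, 3.39 and 3.14 in mutants and 3.83, 3.96 and 5.0 in wild types, a difference of -0.93 ± 0.34 (limma adjusted p = 0.999) at dim levels. The T-box gene Tbx3 differed by 0.66 ± 0.47, with 0.12 left when wild-type replicate 1 was dropped. The brightest probe sets of the 2 genes thus had opposite signs. A second Tbx3 probe set, which was dim, differed by -0.59 ± 0.29, with each mutant below each wild type. The sign of the Tbx3 difference therefore depended on the probe set.

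All 3 measured E protein genes, whose products Id proteins bind, were above the median probe set mean, 2 of them with a higher and 1 with a lower mean in mutants. Tcf12 differed by 0.33 ± 0.22 and Tcf3 by -0.60 ± 0.56, which was -1.27 without wild-type replicate 1. On its brightest probe set, Tcf3 read 5.29, 5.01 and 4.64 in mutants and 4.26, 6.25 and 6.24 in wild types. Wild-type replicate 1 was again the lowest array there, and the mutants lay below the other wild types. The other Tcf3 probe sets were dim and also had a lower mean in mutants, at -0.48 ± 0.19 and -0.19 ± 0.28. On the former each mutant was below each wild type (limma unadjusted p = 0.0397, adjusted p = 0.999). On the latter the groups overlapped. Wild-type replicate 1 was the lowest array on neither of these dim Tcf3 probe sets. Of the other CCN genes, Ccn1, a relative of Ccn2 that responds to many of the same cues, read 7.78, 7.28 and 7.54 in mutants and 3.86, 7.55 and 7.81 in wild types. Ccn1 was thus far lower in wild-type replicate 1 than on any other array, which Ccn2 was not. The dim Ccn3 differed by 0.49 ± 0.28, with 0.26 left when wild-type replicate 1 was dropped.

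**Figure D4:**
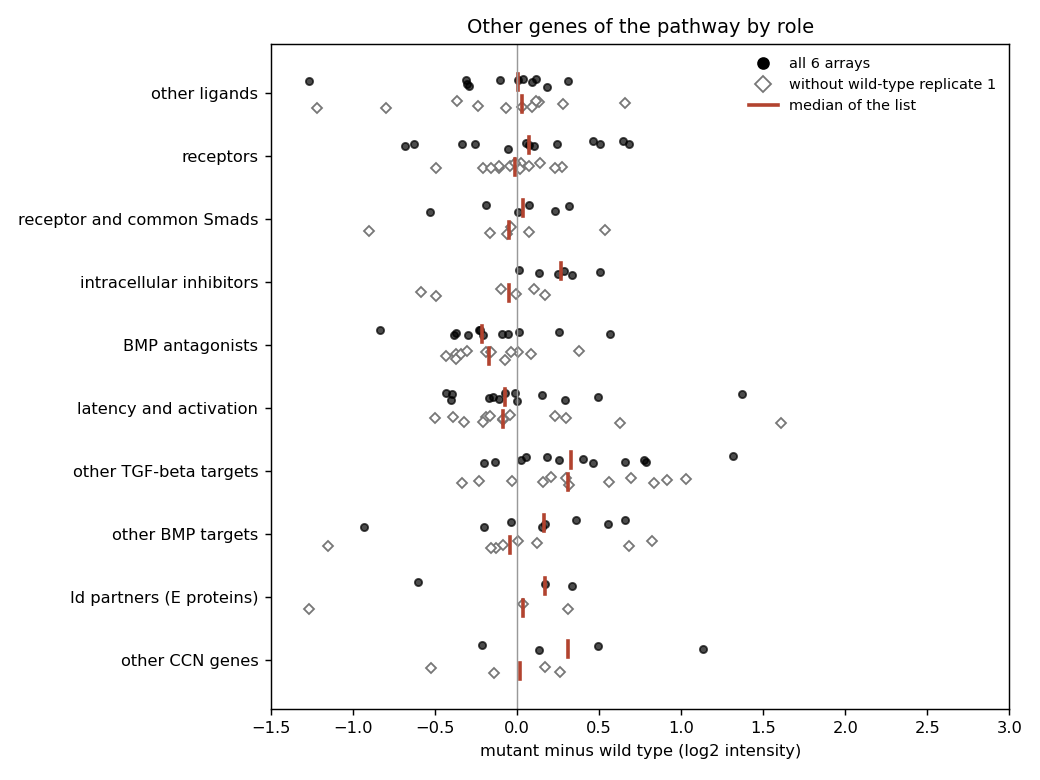
Mutant minus wild-type difference in log2 intensity (x axis) of each measured gene of the 10 pathway lists, by role. Filled circles use all 6 arrays, open diamonds leave out wild-type replicate 1, and red bars mark list medians; the median of the intracellular inhibitors is 0.27 with all arrays and -0.05 without that array, that of the other TGF-beta targets 0.33 and 0.31.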

How the data were processed

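Total RNA of dissected newborn lenses was extracted on columns, amplified by the Nugen Ovation method and biotin-labelled, per the labels' protocols. The authors deposited 1 intensity per probe set and array on a linear scale. The method was RMA per the submitters' processing notes (background correction, quantile normalisation and a summary over probes); its version, and how its values came to be linear, are not stated there. RMA can compress differences of dim probe sets. Here deposited intensities were turned into log2 values without a pseudocount. Of 22690 probe sets, 64 array controls were left out and 22626 were tested with limma 3.58.1 in R 4.3.3 (lmFit, eBayes, two-sided, no covariate, Benjamini-Hochberg over all probe sets, threshold 0.05). The fit was tested on simulated data.

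Gene names came from the platform annotation of 2016 (20380 with 1 symbol, 691 with several, 1555 with none; 20351 matched a RefSeq gene table of GRCm38.p6), and a gene is represented by the probe set with the highest mean over all arrays. The number of arrays limits the precision. No pair of arrays shared more than 0.186% of values. The labels do not say whether replicate numbers pair the samples, and the main fit did not pair them. The members and lists were chosen with earlier results of these data known. Named genes were the members, the 2 of lowest p in each pathway list and the 3 nearest to each mean profile; exceptions are marked. Alternatives were a replicate block, other normalisations, array weights, a trended prior, a filter on dim probe sets, a pseudocount of 16, averaging the probe sets of a gene and leaving out arrays.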

Additional observations from a re-analysis of the deposited data

How the results depend on the processing

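limma called 0 probe sets under each alternative run except array weights, which called 7, none of them the brightest probe set of any of the 10 genes, with a weight of 0.224 for wild-type replicate 1 and 5.65 for wild-type replicate 3. No gene of the 10 passed the threshold in any of 148 values over the alternatives, and 19 of these values had the opposite sign, all of them where arrays were left out or weighted. Leaving out single arrays gave 0 probe sets each time, a mean ligand difference of 0.06 to 0.35, a mean Id difference of -0.11 to 0.88 and a ligand difference minus Id difference of -0.56 to 0.17. The lowest Id mean and the highest of the last came without wild-type replicate 1; array weights turned the same signs, at -0.08 and 0.13. A setting chosen after seeing the data dropped wild-type replicate 1 together with mutant replicate 2: the mean ligand difference was then -0.083, that of the Id genes -0.18 and their difference 0.10. The replicate block called 0 probe sets and left the means at 0.23 and 0.54. Same-numbered samples had correlations of deviations of -0.07, -0.26 and -0.16. These deviations were from group means of 3 arrays, among them the outlying wild-type replicate 1. They therefore cannot tell whether equal numbers mark a shared litter or batch. Averaging all probe sets of a gene gave a mean ligand difference of 0.12, a mean Id difference of 0.56 and -0.44 between them, with Bmp7 at 0.084. With dim probe sets left out the ligand mean had no value, since Tgfb1 and Tgfb3 were dim. The cause of these shifts was not tested.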
